A study of Mus musculus with 36 samples.

Results

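The interferon-inducible GTPases are a family of large GTP-hydrolysing proteins that cells make after exposure to interferon. The family was taken here as the genes of the deposited count table named *Gbp2*, *Gbp3*, *Gbp4*, *Gbp5*, *Gbp6*, *Gbp7*, *Gbp9*, *Irgm1*, *Igtp* and *Iigp1*, which are 10 of its 24781 genes. Of these, 7 are guanylate-binding proteins (GBPs) and 3 are immunity-related GTPases (IRGs). RNA molecules were counted in tumour-associated macrophages (TAMs, sorted as CD45+CD11b+F4/80 high) and in CD8+ T cells (CD45+TCRβ+CD8+). Both came from MC38 tumours, which grow from a mouse colon adenocarcinoma cell line, at day 7 after inoculation into the skin. The design asks how the transcripts of these cells differ in mice that lack B cells, and how they differ when such mice receive γ-aminobutyric acid (GABA).

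Each of the 36 libraries held 100 cells, and each cell type had 3 groups of 6 libraries. WT mice were C57BL/6J or C57BL/6N. *muMt*-/- mice, on C57BL/6J, carry a germline mutation that stops B cell development and so lack B cells in all tissues. GABA-implanted *muMt*-/- mice carried a slow-release GABA pellet placed under the skin on the day before the tumour cells. The labels give no treatment for the WT and *muMt*-/- groups, whereas the study's methods describe placebo pellets for the mice without GABA. The mice were adults a few months old and of both sexes. Replicates are independent library preparations, each from a separate mouse by the study's methods, and the p-values measure the spread between these libraries.

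Interferon-γ signalling switches on *Gbp* and *Irg* genes in macrophages, lymphocytes and most other cells. GBPs coat the vacuoles and surfaces of intracellular bacteria and parasites, help to break them open and expose their contents to inflammasomes, which process interleukin-1β. IRGs act on the same vacuoles: effector IRGs such as Iigp1 load onto the vacuole and disrupt it, while the regulators Irgm1 and Igtp stay on the cell's own membranes and hold the effectors inactive there. In tumours, where no such microbe need be present, these transcripts are widely used as a readout of interferon exposure.

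The number of molecules per library ranged from 22896 to 98015 in CD8+ T cells and from 100254 to 304100 in TAMs. Group medians were 242756, 149960 and 192775 in WT, *muMt*-/- and GABA-implanted TAMs. In CD8+ T cells they were 42065.5, 67121.5 and 80283. The ratio of mean depth between *muMt*-/- and WT was 0.673 in TAMs (p = 0.026, adjusted p = 0.0779, two-sided exact permutation test adjusted over 6 comparisons) and 1.54 in CD8+ T cells (p = 0.0411, adjusted p = 0.0823, same exact test). GABA-implanted against WT CD8+ T cells gave 1.86 (p = 0.00866, adjusted p = 0.0519, same exact test), and 0.823 in TAMs (p = 0.0671, adjusted p = 0.101, same exact test). With all libraries no depth comparison passed the threshold after adjustment, the remaining ratios, GABA-implanted against *muMt*-/-, being 1.22 in TAMs (adjusted p = 0.214, exact test) and 1.21 in CD8+ T cells (adjusted p = 0.104, exact test). Leaving out a library took 4 of them past it. Without WT library 6 the CD8+ T cell ratios to WT were 1.81 for *muMt*-/- (adjusted p = 0.039, exact test) and 2.19 for GABA-implanted mice (adjusted p = 0.026, exact test). In TAMs the *muMt*-/- ratio to WT was 0.600 without *muMt*-/- library 5 (adjusted p = 0.026, exact test), and the GABA-implanted ratio to WT was 0.773 without GABA-implanted library 2 (adjusted p = 0.039, exact test).

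Marker genes checked the sorted populations. A list of 16 macrophage markers made up a median of 1.92% of molecules in WT TAMs, with *Apoe* the most abundant, and 1.48% and 1.71% in *muMt*-/- and GABA-implanted TAMs. A list of 10 T cell markers made up 0.489%, 0.422% and 0.431% of molecules in WT, *muMt*-/- and GABA-implanted CD8+ T cells, with *Thy1* the most abundant, against 0.00252% in WT TAMs. A list of 7 B cell markers gave 0 molecules in WT CD8+ T cells and 8 in WT TAMs, so the sorted cells themselves do not show the loss of B cells. Other lists had low medians. In WT TAMs these were 0.000164% for 2 CD4 T cell markers, 0.0% for 3 natural killer cell markers, 0.00305% for 5 neutrophil markers, 0.000638% for 6 dendritic cell markers, 0.00467% for 5 epithelial markers and 0.0387% for 6 stromal markers. In WT CD8+ T cells the same 6 lists gave 0.0%, 0.0%, 0.0%, 0.0294%, 0.00284% and 0.0202%, and *Ccr7*, which T cells also express, held 79 of the 84 dendritic molecules.

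Stromal markers varied among libraries of a group. They made up 0.531% of molecules in WT TAM library 6 (1342 molecules), where the other WT TAM libraries lay between 0.00921% and 0.0619%, 0.199% and 0.122% in *muMt*-/- TAM libraries 3 and 4 and 0.263% in GABA-implanted TAM library 2. In CD8+ T cells the stromal range was 0.00791% to 0.0754% in WT, 0.00154% to 0.132% in *muMt*-/- (median 0.0655%) and 0.00425% to 0.0651% with GABA (median 0.0216%), with overlap of all groups. In TAMs the epithelial medians were 0.00801% and 0.00575%, the neutrophil medians 0.00984% and 0.00639%, and the dendritic medians 0.0028% and 0.00206% in *muMt*-/- and GABA-implanted mice, and edgeR called 0 neutrophil and 0 dendritic markers in *muMt*-/- against WT TAMs (1 of 3 and 1 of 2 tested at an unadjusted p under 0.05, beside 14.9% of all genes). Between *muMt*-/- and WT TAMs edgeR called 1 of 16 macrophage markers higher (*Itgam*) and 3 lower (*Lyz2*, *C1qb*, *C1qc*), and the 1 epithelial marker tested higher (*Cdh1*), beside 2.05% of all genes. These genes are named after their values were seen. Of the 16 macrophage markers 13 had a negative log2 fold change there (median −0.24 against −0.05 over all genes), and 10 had an unadjusted p under 0.05. The part of these RNAs in the values of the 10 genes was not tested.

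The macrophage markers were not equally low in all CD8+ T cell libraries. They made up 0.0205% to 0.195% of molecules in WT (median 0.043%), 0.105% to 0.617% in *muMt*-/- (0.152%) and 0.0391% to 0.4% in GABA-implanted mice (0.206%). *Ctsb* was the most abundant of them in each group, and *Adgre1* and *Mrc1* were at 0 in WT. The ratio of mean percentages was 3.42 between *muMt*-/- and WT (p = 0.0303, adjusted p = 0.0877, two-sided exact permutation test adjusted over 3 comparisons), 3.08 between GABA-implanted and WT (p = 0.0584, adjusted p = 0.0877, same exact test) and 0.90 between GABA-implanted and *muMt*-/- (adjusted p = 0.838, same exact test). Without WT library 5 the *muMt*-/- ratio was 5.45 (adjusted p = 0.013, exact test) and the GABA ratio 4.91 (adjusted p = 0.0584, exact test), and without *muMt*-/- library 1 the *muMt*-/- ratio was 2.29 (adjusted p = 0.0909, exact test). Leaving out GABA-implanted library 5 took the GABA ratio past the threshold (3.58, adjusted p = 0.0455, exact test).

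The 10 genes lie on 4 chromosomes of the mm10 genome. *Gbp5* (chr3:142493978-142522344), *Gbp7* (chr3:142530342-142550149), *Gbp3* (chr3:142560026-142573209) and *Gbp2* (chr3:142620602-142638008) lie in this order on the plus strand of chromosome 3, with the relative *Gbp2b* between *Gbp3* and *Gbp2*. *Gbp9* (chr5:105077630-105139539), *Gbp4* (chr5:105115767-105139586) and *Gbp6* (chr5:105270702-105293698) lie on the minus strand of chromosome 5. The IRG regulators *Irgm1* (chr11:48861968-48871683, minus strand) and *Igtp* (chr11:58199556-58207591, plus strand) are on chromosome 11, and the effector *Iigp1* (chr18:60376027-60392634, plus strand) is on chromosome 18.

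Related genes of a family can share sequence, which makes the assignment of molecules to a gene less certain. Of the 50-base stretches in *Gbp6* transcripts, 70.7% occur in other genes as well, mostly in *Gm43302*. The relative *Gbp10* shares 73.3% of its own stretches with *Gbp6*. The share was 12.7% for *Gbp7*, 11.8% for *Igtp* (with *Irgm2*), 8.05% for *Gbp9* and 7.7% for *Gbp4*. It stayed between 0.31% and 3.75% for *Irgm1*, *Gbp5*, *Iigp1*, *Gbp2* and *Gbp3*. On the annotation, *Igtp* overlaps *Irgm2* over 7974 bases of the same strand, and *Gbp9* overlaps *Gbp4* over 23773. *Gbp8*, a relative outside the 10, overlaps *Gbp9* over 61910 bases and *Gbp4* over 23774, also on the same strand. Values of *Gbp6*, *Gbp7* (10.5% shared with *Gm43802*), *Igtp*, *Gbp9* and *Gbp4* are therefore uncertain as to which of these genes they come from.

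Levels within a cell type are given as the normalized number of molecules, the count divided by the library's size factor. In TAMs the effector *Iigp1* had a normalized number of 107 to 173 in WT (median 136). It ranged from 66.0 to 184 in *muMt*-/- TAMs (median 134) and from 75.7 to 166 in GABA-implanted ones (median 119). In *muMt*-/- TAMs, libraries 1 and 4 lay below every WT library and library 5 above, so the groups overlapped.

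The regulator *Irgm1* had 42.6 to 80.2 normalized molecules in WT TAMs (median 52.4), 12.6 to 62.7 in *muMt*-/- (45.1) and 23.9 to 62.3 with GABA (49.2). 3 of the 6 *muMt*-/- libraries lay below every WT library and the other 3 within the WT range. *Igtp*, the second regulator, had 53.5 to 79.9 in WT TAMs (median 66.7), 43.3 to 112 in *muMt*-/- (72.2) and 45.1 to 113 with GABA (59.5). Its *muMt*-/- libraries spread to both sides of the WT range, with 3 above it and 1 below.

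*Gbp2* and *Gbp5* encode GBPs that carry a lipid anchor for membranes. *Gbp2* had 386 to 516 normalized molecules in WT TAMs (median 442), 239.9 to 558 in *muMt*-/- (426) and 249.6 to 604 with GABA (452). Again *muMt*-/- libraries 1 and 4 were below the WT range, and libraries 3 and 5 above it. *Gbp5* had 23.3 to 44.6 in WT TAMs (median 29.1), 18.8 to 46.2 in *muMt*-/- (41.5) and 17.3 to 47.3 with GABA (34.0). The highest WT value belonged to library 5, whereas the other 5 WT libraries lay between 23.3 and 30.7.

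The remaining genes on chromosome 3 are *Gbp3* and *Gbp7*, which encode GBPs that join the others on vacuoles. *Gbp3* had 48.7 to 68.3 normalized molecules in WT TAMs (median 61.2), 29.3 to 71.0 in *muMt*-/- (65.9) and 26.6 to 65.4 with GABA (53.3). *Gbp7* had 80.5 to 131 in WT TAMs (median 101), 120.6 to 166 in *muMt*-/- (135) and 77.0 to 142 with GABA (112). In *Gbp7* every *muMt*-/- library was above the WT median and 4 of 6 were above all WT libraries, while the 2 lowest fell below WT library 6.

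The chromosome 5 genes *Gbp4*, *Gbp6* and *Gbp9* encode GBPs of the same design. *Gbp4* had 77.6 to 84.7 normalized molecules in WT TAMs (median 79.1), 47.4 to 131 in *muMt*-/- (98.5) and 47.8 to 125 with GABA (70.6). The coefficient of variation among WT libraries was 3.32%, and no *muMt*-/- or GABA-implanted library fell inside that narrow range: in *muMt*-/- TAMs 5 libraries were above it and 1 below. Counting error alone would give a coefficient of variation of 9.85% at this depth, so the WT libraries lay closer together than counting error would place them. *Gbp6* had 31.3 to 49.6 in WT TAMs (median 36.9), 23.7 to 52.5 in *muMt*-/- (41.3) and 21.3 to 55.8 with GABA (37.4). *Gbp9* had 8.68 to 16.2 in WT TAMs (median 13.5), 9.76 to 29.5 in *muMt*-/- (15.7) and 7.97 to 22.9 with GABA (15.6). All 3 groups overlapped for both genes, and 3 *muMt*-/- libraries of *Gbp9* lay above every WT library.

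**Figure D1:**
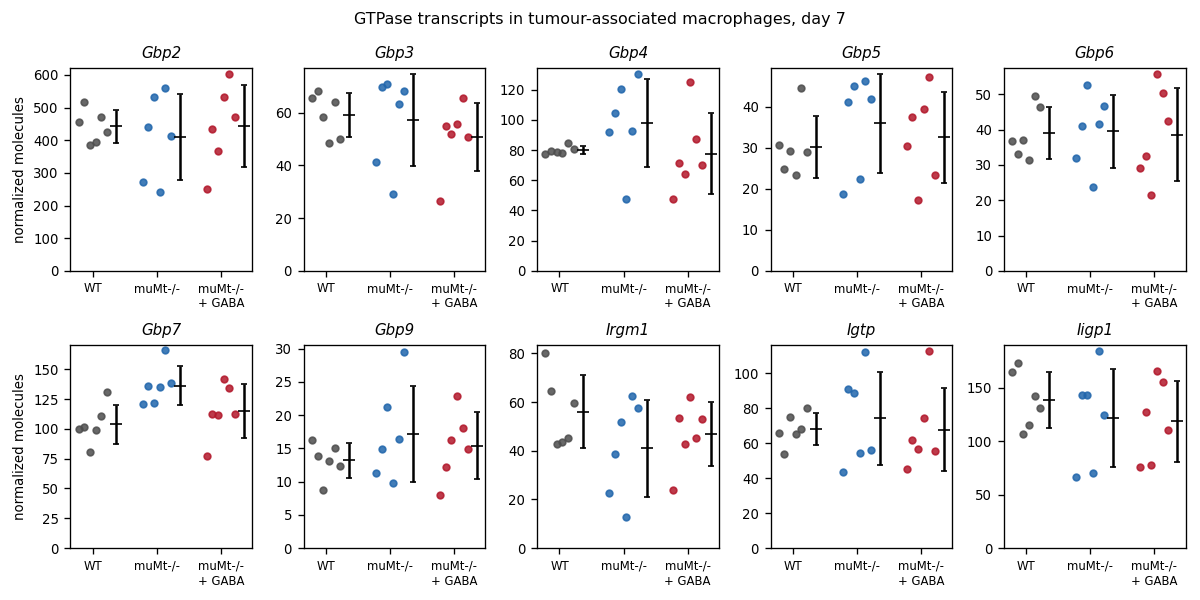
Normalized number of molecules (vertical axes) of the 10 genes in WT, *muMt*-/- and GABA-implanted *muMt*-/- TAMs, with 1 point per library (n = 6 per group) and bars for the mean ± SD. The 3 groups overlap for each gene, and WT libraries of *Gbp4* sit between 77.6 and 84.7 while the other groups reach from 47.4 to 131.

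Between *muMt*-/- and WT TAMs, 0 of the 10 genes passed the threshold (adjusted p under 0.05) in edgeR's quasi-likelihood test, against 2.05% of the 9469 genes tested (194, with 1.02% higher and 1.02% lower). 1 of the 10 had an unadjusted p under 0.05 in edgeR, as did 14.9% of all genes. DESeq2's Wald test called 0 of the 10 and 192 genes in all after adjustment. Without adjustment it called 1 of the 10 and 1042 of the 9469 genes. Groups failed to overlap for 0 of the 10 genes and for 2.48% of all genes. Of all genes, 11 were called with log2 total molecules as a covariate, in place of 194. The 194 calls also depend on single libraries: the count was 67 without *muMt*-/- library 4, 87 without WT library 1 and 125 without WT library 6.

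The fold changes were small. The log2 fold changes of the 10 genes ran from −0.41 for *Irgm1* to 0.37 for *Gbp7*, with a median of 0.08 against −0.05 over all genes. Their 95% confidence intervals all lay between −0.90 and 0.88, so differences of more than a doubling in either direction fell outside them. *Gbp7* had a log2 fold change of 0.37 ± 0.15 (SE, interval 0.06 to 0.68, adjusted p = 0.233 in edgeR), with 6 of 6 *muMt*-/- libraries above the WT median. Of its 50-base stretches 12.7% are shared with other genes. *Irgm1* gave −0.41 ± 0.24 (adjusted p = 0.446 in edgeR), with 4 of 6 below the WT median. *Gbp4* gave 0.28 ± 0.19 (adjusted p = 0.543, 5 of 6 above) and *Gbp9* 0.37 ± 0.25 (adjusted p = 0.527, 4 of 6 above). With log2 total molecules as a covariate, 9 of the 10 genes were higher and 1 lower, in place of 6 and 4, again with 0 called. Their median was then 0.33 against −0.02 over all genes, of which 48.5% were higher. An unadjusted p under 0.05 in edgeR was then found for 3 of the 10, beside 862 of 9469 genes.

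The spread of these genes also differed between WT and the other TAMs. The SD of log2 values over the 6 libraries was larger in *muMt*-/- than in WT for 9 of the 10 genes and larger with GABA for 10 of 10. The same held for 71.2% and 67.2% of all 5310 genes with a mean of at least 5 normalized molecules, a set not matched in depth to the 10. The median SD of the 10 genes was 0.24 in WT, 0.52 in *muMt*-/- and 0.47 with GABA, and over the 5310 genes it was 0.34, 0.45 and 0.44. The coefficient of variation from counting error alone was also larger outside WT for each of the 10. For *Gbp2* it was 4.19% in WT, 5.63% in *muMt*-/- and 4.68% with GABA. The observed values were 11.2%, 32.1% and 28.2%. The part of counting error in the spread was not tested. In CD8+ T cells 8 of the 10 had a mean of at least 5. There the SD was larger than in WT for 5 of 8 in *muMt*-/- and 3 of 8 with GABA, beside 34.1% and 37.3% of 1883 genes. No test was made of these differences.

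A few libraries carried much of the spread. *muMt*-/- library 4 was the lowest of its group for 6 of the 10 genes and library 1 for the other 4, and among GABA-implanted TAMs library 1 was the lowest for 8. All 10 genes together came to 317, 381 and 304 molecules per 100000 in these 3 libraries, whereas WT TAMs ranged from 487 to 592. Their total molecules were 145593, 100254 and 151856. The remaining *muMt*-/- libraries ranged from 572 to 676 and included the highest values of all 10 genes in that group. Macrophage markers made up 1.35% of molecules in *muMt*-/- library 4 and 1.76% in library 1, the lowest and highest of that group. GABA-implanted library 1 had 0.992%, the lowest of its group. The part of these differences in the 10 genes was not tested.

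Adding GABA did not bring a call either. Between GABA-implanted and *muMt*-/- TAMs, 0 of the 10 genes passed in edgeR against 0.0211% of genes (2 of 9469, 0.0106% higher and 0.0106% lower), with 0 of the 10 and 8.46% of genes at an unadjusted p under 0.05. DESeq2's Wald test called 0 of 10 and 8 genes in all, and the groups did not overlap for 0 of the 10 and 0.591% of genes. The log2 fold changes ran from −0.31 (*Gbp4*, SE 0.20, adjusted p = 0.714 in edgeR, 5 of 6 GABA-implanted libraries below the *muMt*-/- median) to 0.18 (*Irgm1*), with a median of −0.14 against 0.06 over all genes. *Gbp7* had −0.22 ± 0.15 (adjusted p = 0.752 in edgeR), with 5 of 6 libraries below the median and 4 below all *muMt*-/- libraries. *Gbp3* was the gene with 6 of 6 below the median (−0.15 ± 0.20, adjusted p = 0.888 in edgeR). All 10 intervals lay between −0.70 and 0.69. The 2 genes called became 36 without GABA-implanted library 1, 12 without *muMt*-/- library 5, and 5 without *muMt*-/- library 2 or GABA-implanted library 2.

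Against WT TAMs the GABA-implanted ones gave 0 of 10 calls and 0.0739% of genes (7, with 0.0422% higher and 0.0317% lower) in edgeR, 0 of the 10 and 7.02% of genes at an unadjusted p under 0.05, and 0 of 10 with 4 genes in all by DESeq2's Wald test. Groups did not overlap for 0 of the 10 and 0.57% of genes. Log2 fold changes ran from −0.22 (*Irgm1*) to 0.24 (*Gbp9*) around a median of −0.0051, beside 0.02 over all genes, and the 10 intervals lay between −0.70 and 0.74. The 7 genes called became 3 without GABA-implanted library 1 or WT libraries 1, 2 or 4, and 2 without GABA-implanted libraries 2 or 3 or WT libraries 3 or 6. This comparison shares its libraries with the preceding ones.

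**Figure D2:**
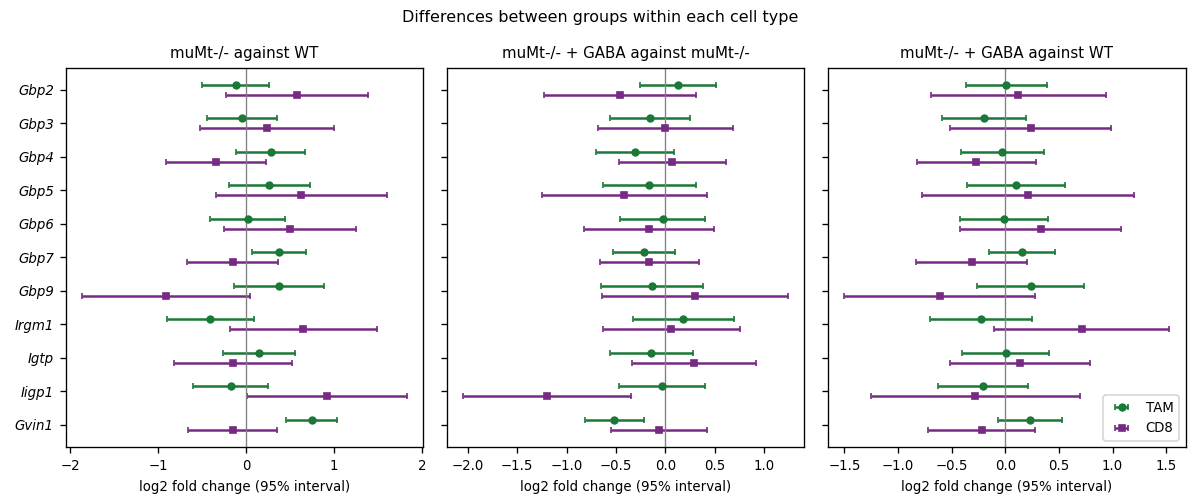
Log2 fold changes (points, horizontal axes) with 95% confidence intervals (lines) for the 3 comparisons in TAMs and the 3 in CD8+ T cells. Shown are the 10 genes and *Gvin1*, a related GTPase outside the 10. For the 10 genes the points lie between −0.41 and 0.37 in TAMs, with short intervals. In CD8+ T cells they lie between −1.20 and 0.92, with wide ones. In TAMs *Gvin1* lies above the range of the 10 in *muMt*-/- against WT. It lies below that range in GABA-implanted against *muMt*-/- TAMs.

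In CD8+ T cells the family was counted in far fewer molecules. *Iigp1* had normalized numbers of 0 to 16.0 in WT (median 8.18), 3.36 to 21.5 in *muMt*-/- (14.5) and 1.86 to 11.9 with GABA (5.49). The groups overlapped: 3 *muMt*-/- libraries were above all WT libraries, and every GABA-implanted library was below the *muMt*-/- median. WT library 2 held 0 molecules of *Iigp1* and of *Gbp6* among 22896 in total, where a count of 0 allows up to 13.1 per 100000.

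The regulators were also low. *Irgm1* had 2.40 to 7.33 normalized molecules in WT CD8+ T cells (median 5.07), 3.33 to 10.6 in *muMt*-/- (9.03) and 4.34 to 13.4 with GABA (6.92). 4 *muMt*-/- libraries were above all WT libraries and the other 2 near the bottom of the WT range. *Igtp* had 8.84 to 19.6 in WT (median 14.7), 3.33 to 19.6 in *muMt*-/- (12.8) and 7.44 to 23.5 with GABA (14.0), with full overlap of the groups.

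*Gbp2* varied most widely of the lipid-anchored pair, with 11.0 to 68.6 normalized molecules in WT CD8+ T cells (median 23.3), 7.85 to 86.0 in *muMt*-/- (47.8) and 10.9 to 66.1 with GABA (28.1). *Gbp5* had 2.06 to 7.21 in WT (median 3.34), 1.12 to 10.1 in *muMt*-/- (5.05) and 1.56 to 5.52 with GABA (4.08), from 1 to 10 molecules per library. The groups overlapped for both. *Gbp3* had 3.76 to 14.9 in WT (median 5.88), 3.36 to 12.2 in *muMt*-/- (7.43) and 4.34 to 10.2 with GABA (7.93). *Gbp7* had 18.3 to 28.7 in WT (median 21.3), 9.99 to 27.0 in *muMt*-/- (16.6) and 11.7 to 20.5 with GABA (15.5), so that no GABA-implanted library reached the WT median.

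Among the chromosome 5 genes, *Gbp4* had 12.02 to 23.7 normalized molecules in WT CD8+ T cells (median 17.1), 6.66 to 20.2 in *muMt*-/- (11.9) and 9.53 to 14.6 with GABA (13.0). *Gbp6* had 0 to 10.3 in WT (median 7.42), 5.83 to 13.4 in *muMt*-/- (10.2) and 4.45 to 12.6 with GABA (8.60). *Gbp9* had 2.40 to 8.84 in WT (median 4.87), 0.833 to 3.36 in *muMt*-/- (2.71) and 1.83 to 6.20 with GABA (2.12). Every *muMt*-/- library of *Gbp9* was below the WT median and 2 were below all WT libraries, but these values rest on 1 to 6 molecules per WT library.

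**Figure D3:**
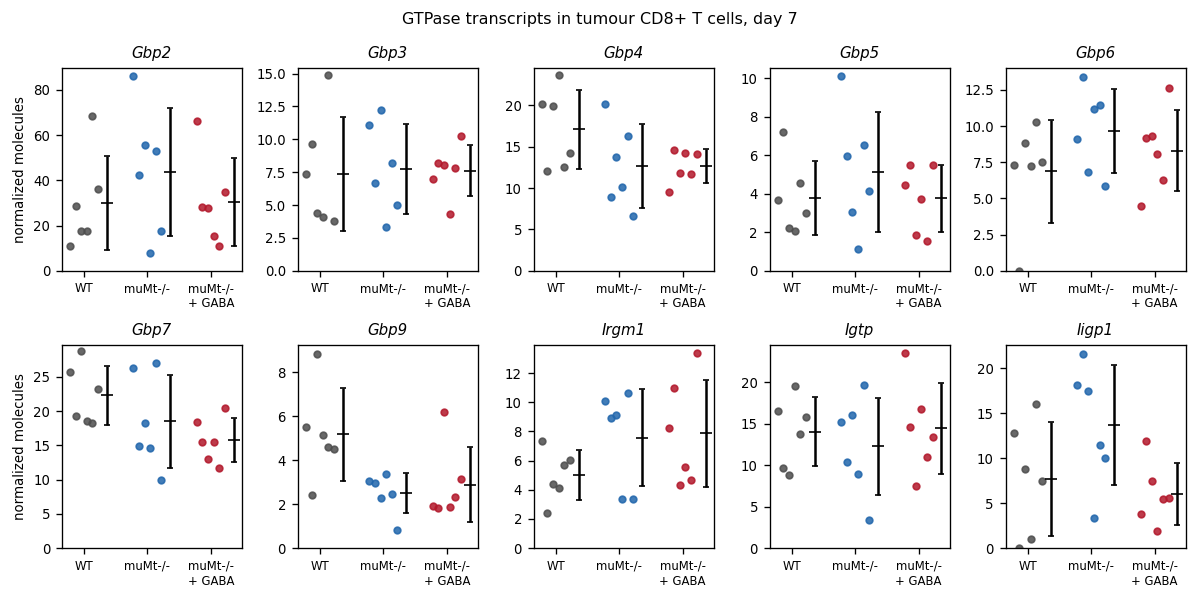
Normalized number of molecules (vertical axes) of the 10 genes in WT, *muMt*-/- and GABA-implanted *muMt*-/- CD8+ T cells, with 1 point per library (n = 6 per group) and bars for the mean ± SD. The groups overlap for each gene, and WT library 2 is at 0 for *Gbp6* and *Iigp1*.

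Between *muMt*-/- and WT CD8+ T cells edgeR called 0 of the 10 genes and 0.0% of the 6663 genes tested. 1 of the 10 and 6.17% of genes had an unadjusted p under 0.05, DESeq2's Wald test called 0 genes after adjustment and 226 without it, and the groups did not overlap for 0 of the 10 and 0.435% of genes. *Iigp1* was the gene under 0.05, at a log2 fold change of 0.92 ± 0.45 (SE, interval 0.01 to 1.83, adjusted p = 0.759 in edgeR), with 5 of 6 *muMt*-/- libraries above the WT median. *Gbp9* lay at the other end, at −0.91 ± 0.47 (adjusted p = 0.811 in edgeR) with 6 of 6 below. The median of the 10 was 0.37 against 0.15 over all genes. Only 3 of the 10 intervals stayed within ±1, so a doubling or halving was not excluded by the intervals of the rest. Without WT library 5 edgeR called 13 genes, 0 of them among the 10.

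Between GABA-implanted and *muMt*-/- CD8+ T cells edgeR again called 0 of the 10 and 0.0% of genes, with 1 of the 10 and 3.71% of genes at an unadjusted p under 0.05. DESeq2's Wald test called 0 genes after adjustment and 133 without it, *Iigp1* among them, and the groups did not overlap for 0 of the 10 and 0.255% of genes. *Iigp1* had a log2 fold change of −1.20 ± 0.42 (interval −2.05 to −0.35, adjusted p = 0.999 in edgeR), with 6 of 6 GABA-implanted libraries below the *muMt*-/- median. The other 9 genes lay between −0.46 (*Gbp2*) and 0.30 (*Gbp9*), the median of the 10 was −0.08 against 0.03 over all genes, and 6 of the 10 intervals stayed within ±1. Without *muMt*-/- library 6 or GABA-implanted library 2, edgeR called 1 gene, which was not among the 10.

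Between GABA-implanted and WT CD8+ T cells the counts were 0 of the 10 and 0.0% of genes in edgeR, 0 of the 10 and 6.89% of genes at an unadjusted p under 0.05, and 0 of the 10 with 1 gene in all by DESeq2's Wald test. Groups did not overlap for 0 of the 10 and 0.315% of genes. Log2 fold changes ran from −0.61 ± 0.44 for *Gbp9* (adjusted p = 0.806 in edgeR, 5 of 6 libraries below the WT median) to 0.71 ± 0.40 for *Irgm1* (adjusted p = 0.742, 4 of 6 above), with a median of 0.13 against 0.21 over all genes. With DESeq2's size factors in edgeR the all-gene median was 0.06 in place of 0.21, and 4 of the 10 genes were higher and 6 lower in place of 6 and 4. Without GABA-implanted library 1 or WT library 6, edgeR called 1 gene, which was not among the 10.

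In the comparisons with WT, macrophage markers had positive log2 fold changes in CD8+ T cells that did not pass the threshold. In *muMt*-/- against WT CD8+ T cells, 14 of 14 macrophage markers tested had a positive log2 fold change (median 2.01), 12 of them at an unadjusted p under 0.05 in edgeR, beside 6.17% of all genes, and 0 after adjustment. In GABA-implanted against WT the median was 1.79, again with 14 of 14 positive, 10 at an unadjusted p under 0.05, beside 6.89% of all genes, and 0 after adjustment. In GABA-implanted against *muMt*-/- 6 were positive and 8 negative, with a median of −0.03 and 0 at an unadjusted p under 0.05. The levels of the 10 genes in CD8+ T cells, each as a percentage of its TAM level, had a median of 49.1% in WT (up to 128% for *Gbp9*) and 46.3% in *muMt*-/- mice (35.0% to 81.5%). The percentage went from 29.0% to 61.4% for *Irgm1* and from 128% to 48.0% for *Gbp9*, and for the macrophage markers the median went from 2.77% to 15.3%. With the macrophage marker percentage as a covariate, 4 of the 10 genes were higher and 6 lower in *muMt*-/- than WT CD8+ T cells, in place of 6 and 4, and the median moved to −0.20 (0 called). In GABA-implanted against WT, 3 were higher and 7 lower with this covariate. The sign of *Iigp1* was the same with and without the covariate, at 0.45 and −0.73 for these comparisons with WT and −1.18 between GABA-implanted and *muMt*-/- CD8+ T cells. Without the covariate *Iigp1* was at 0.92 in *muMt*-/- against WT. The part of macrophage RNA in the values of the 10 genes, *Iigp1* included, was not tested.

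TAMs and CD8+ T cells were compared in WT mice on molecules per 100000 of the library. *Iigp1* had 57.5 to 90.6 per 100000 in WT TAMs (median 72.8) and 0 to 27.1 in WT CD8+ T cells (14.4). *Gbp2* had 208 to 271 (median 238) against 18.5 to 116 (42.1). *Irgm1* had 23.0 to 42.8 (median 28.2) against 4.37 to 12.3 (8.79). In these 3 genes every TAM library was above every CD8+ T cell library.

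*Gbp3* also separated the cell types, at 26.7 to 35.9 per 100000 in WT TAMs (median 32.5) and 6.50 to 25.1 in WT CD8+ T cells (10.1). The medians of the remaining genes were closer. For *Gbp5* they were 15.8 in TAMs and 5.69 in CD8+ T cells, for *Gbp6* 19.8 and 13.0, for *Gbp7* 53.8 and 37.6, for *Igtp* 35.7 and 25.3. *Gbp4* had 42.6 and 29.3. These 5 genes had from 2 to 5 of 6 TAM libraries above all CD8+ T cell libraries. *Gbp9* alone had the lower median in TAMs, at 4.68 to 8.65 (median 7.22) against 4.37 to 15.8 (8.53).

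**Figure D4:**
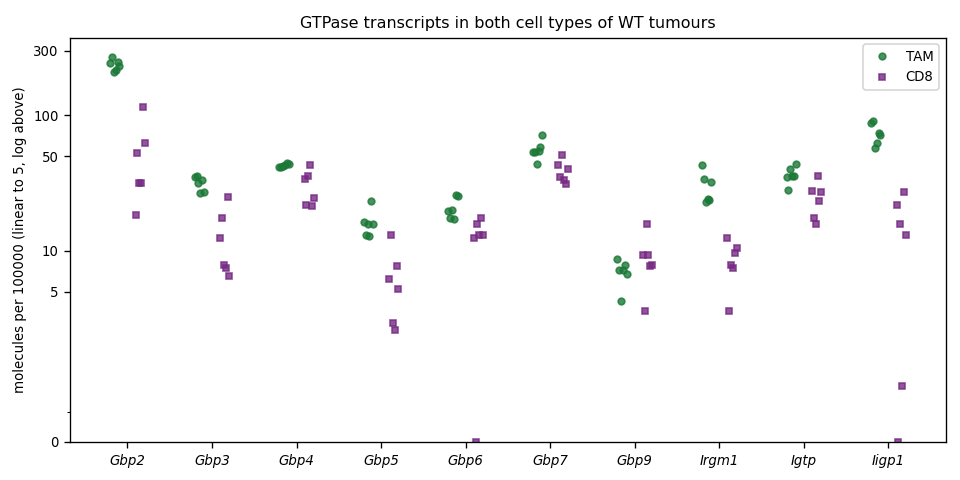
Molecules per 100000 of the library (axis linear at its lower end and log above) of the 10 genes in WT TAMs and WT CD8+ T cells. Each library is 1 point (n = 6 per cell type). TAM libraries lie above all CD8+ T cell libraries for *Gbp2*, *Gbp3*, *Irgm1* and *Iigp1*, and the cell types overlap for *Gbp9*.

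In edgeR's test over all 36 libraries, 9 of the 10 genes were called higher in WT TAMs than in WT CD8+ T cells, against 16.8% of the 8477 genes tested (1420, with 508 lower and 22.7% called in either direction). An unadjusted p under 0.05 was found for 32.6% of genes. By DESeq2's Wald test 8 of the 10 were higher, beside 1044 genes higher and 676 lower. Groups did not overlap for 4 of the 10, all higher in TAMs, and for 9.82% of genes in that direction. The log2 difference was 2.76 ± 0.39 for *Iigp1* (adjusted p = 1.5e-08), 2.45 ± 0.35 for *Gbp2* (1.13e-07) and 2.03 ± 0.41 for *Irgm1* (1.4e-05), each with 6 of 6 TAM libraries above the T cell median. *Gbp5* gave 1.73 ± 0.43 (adjusted p = 0.000421) and *Gbp3* 1.68 ± 0.32 (1.35e-05), also 6 of 6.

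Smaller differences were called for *Gbp6* (1.04 ± 0.33, adjusted p = 0.0089 in edgeR), *Gbp7* (0.88 ± 0.21, 0.000841), *Gbp4* (0.86 ± 0.25, 0.00659) and *Igtp* (0.83 ± 0.29, 0.0269), all with 6 of 6 TAM libraries above the T cell median. *Gbp9* was at 0.02 ± 0.35 (interval −0.68 to 0.72, adjusted p = 0.98, 1 of 6 above), and at −0.14 with DESeq2's size factors. The median over the 10 genes was 1.36 against 0.36 over all genes, the latter being 0.20 with DESeq2's size factors. The call of *Igtp* was lost with those size factors (adjusted p = 0.0882) and without any one of CD8+ T cell libraries 1, 2, 3 and 5 or TAM libraries 3, 4, 5 and 6, where its adjusted p reached at most 0.0845, and over all alternatives it ran from 0.00318 to 0.514. On simulated counts the fit over all 36 libraries made more wrong calls than its threshold implies, and with edgeR's own filter it did not. With that filter 9 of the 10 genes were tested and 8 called higher, in place of 9, beside 675 of 2614 genes called higher. Every TAM library was deeper than every CD8+ T cell library, so cell type and depth cannot be told apart. With log2 total molecules as a covariate 0 of the 10 genes and 412 of all genes were called. Likewise, fewer cells of a kind and less RNA per cell cannot be told apart in these pools of 100 cells.

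The difference between the cell types in their response to B cell loss was tested as an interaction. It used the same fit over all 36 libraries, which made too many wrong calls on simulated counts. edgeR called 0 of the 10 genes and 0.0118% of genes (1), with 3 of the 10 and 10.1% of genes at an unadjusted p under 0.05, while DESeq2's Wald test called 0 of the 10 and 4 genes. *Gbp9* had an interaction of 1.27 ± 0.53 on the log2 scale (adjusted p = 0.392 in edgeR), being above the WT median in 4 of 6 *muMt*-/- TAM libraries and below it in 6 of 6 CD8+ T cell libraries. *Iigp1* had −1.14 ± 0.50 (adjusted p = 0.417 in edgeR; 3 of 6 below in TAMs, 5 of 6 above in CD8+ T cells) and *Irgm1* −1.10 ± 0.52 (adjusted p = 0.447 in edgeR; 4 of 6 below and 4 of 6 above). The all-gene median was −0.30 here, and −0.11 with DESeq2's size factors. Macrophage markers were negative in 16 of 16 (median −2.22), with 13 at an unadjusted p under 0.05 and 0 called, and the part of macrophage RNA in this interaction of *Iigp1* and *Irgm1* was not tested. The 1 gene called became 0 without CD8+ T cell libraries *muMt*-/- 1, WT 4 or WT 6 or TAM library *muMt*-/- 5, and 3, 4 and 9 without CD8+ T cell libraries *muMt*-/- 2, *muMt*-/- 6 and WT 5.

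For GABA the interaction gave 0 of the 10 and 0.0% of genes in edgeR, with 1 of the 10 and 4.53% of genes at an unadjusted p under 0.05 and 0 genes by DESeq2's Wald test. That gene was *Iigp1*, with 1.17 ± 0.48 (adjusted p = 0.994 in edgeR): 4 of 6 GABA-implanted TAM libraries and 6 of 6 CD8+ T cell libraries were below their *muMt*-/- medians. edgeR called 1 gene without CD8+ T cell library *muMt*-/- 6 and 2 without GABA-implanted library 1, 0 of them among the 10.

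Relatives outside the 10 genes were followed as a list of 11, made of other GBPs (*Gbp2b*, *Gbp8*, *Gbp10*, *Gbp11*), IRGs (*Irgm2*, *Tgtp1*, *Tgtp2*, *Ifi47*), the very large GTPase *Gvin1* and the antiviral, dynamin-like *Mx1* and *Mx2*. All 11 were tested in TAMs and 8 in CD8+ T cells. 1 of 11 was called in *muMt*-/- against WT TAMs, beside 2.05% of all genes (7 higher and 4 lower, median log2 fold change 0.11 against −0.05 over all genes), and 0 were called in the other 5 comparisons within a cell type by edgeR, with 1 at an unadjusted p under 0.05, in GABA-implanted against *muMt*-/- TAMs, beside 8.46% of all genes. The gene was *Gvin1* both times, and DESeq2's Wald test called it in both comparisons.

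*Gvin1* had 59.2 to 78.4 normalized molecules in WT TAMs (median 67.9), 98.0 to 129 in *muMt*-/- (122) and 66.5 to 99.7 with GABA (81.4). Every *muMt*-/- library was above every WT library, and 5 of 6 GABA-implanted libraries were below every *muMt*-/- library. It was higher in *muMt*-/- than in WT TAMs by 0.75 ± 0.14 (log2, adjusted p = 0.0035 in edgeR). The GABA-implanted value relative to *muMt*-/- was −0.51 ± 0.15 (adjusted p = 0.209 in edgeR, 6 of 6 below the median; adjusted p = 0.0334 by DESeq2's Wald test, up to 0.419 over all alternatives), and relative to WT 0.23 (adjusted p = 0.79 in edgeR, 5 of 6 above).

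The interaction of *Gvin1* with cell type was 0.87 ± 0.28 (adjusted p = 0.235 in edgeR and 0.0411 by DESeq2's Wald test, which gave 1.09, up to 0.842 over all alternatives), with 6 of 6 *muMt*-/- libraries above the WT median in TAMs and 5 of 6 below it in CD8+ T cells. With total molecules as a covariate the difference between *muMt*-/- and WT TAMs was 0.77 (adjusted p = 0.0657), and over all other settings the adjusted p stayed between 1.4e-06 and 0.0149. *Gvin1* shares 99.2% of its 50-base stretches with other genes, 98.3% with *Gm4070*, so its molecules may come from a near-identical copy. In TAMs against CD8+ T cells of WT mice 3 of 9 relatives were called higher by edgeR (*Gbp2b*, *Irgm2*, *Tgtp2*), beside 16.8% of all genes. *Tgtp2* shares 86.6% of its stretches with other genes, 85.8% with *Tgtp1*, so its value is uncertain as well. *Gbp2b* had 70 molecules in WT TAMs (4.77 per 100000) and 0 in all 18 CD8+ T cell libraries, at least 4.18-fold higher against a floor of 3 molecules over the WT group.

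Upstream of the family, a list of 11 genes covered interferon-γ, its receptor, kinases and transcription factors. In edgeR 0 were called in any of the 6 comparisons within a cell type, of 11 tested in TAMs and 10 in CD8+ T cells. At an unadjusted p under 0.05 the counts were 3, 2 and 2 in TAMs and 1, 1 and 2 in CD8+ T cells, in the order *muMt*-/- against WT, GABA-implanted against *muMt*-/- and GABA-implanted against WT. In the same order, the shares of all genes at an unadjusted p under 0.05 were 14.9%, 8.46% and 7.02% in TAMs and 6.17%, 3.71% and 6.89% in CD8+ T cells. *Ifng*, the ligand, had 101 to 326 normalized molecules in WT CD8+ T cells (median 262), 107 to 362 in *muMt*-/- (202) and 183 to 754 with GABA (398), while the TAM groups held 1, 0 and 18 molecules in all, 16 of the last in GABA-implanted library 1.

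Of 26 further interferon-γ targets tested in TAMs, 1 rose and 1 fell in *muMt*-/- against WT (median log2 fold change 0.02 against −0.05 over all genes; 11 at an unadjusted p under 0.05, beside 2.05% of all genes called and 14.9% unadjusted), and 0 were called in either GABA comparison in TAMs (1 and 4 unadjusted, beside 8.46% and 7.02% of all genes) or in CD8+ T cells (6, 1 and 8 of 24 unadjusted, beside 6.17%, 3.71% and 6.89% of all genes). *Cd274*, which encodes the checkpoint ligand PD-L1, rose from a median of 45.0 to 83.6 normalized molecules (log2 fold change 0.84 ± 0.16, adjusted p = 0.0035 in edgeR, 6 of 6 above every WT library). *Psmb10*, an immunoproteasome subunit, fell from 70.5 to 42.5 (−0.76 ± 0.20, adjusted p = 0.03 in edgeR, 6 of 6 below every WT library). Its call was lost in 6 of 12 fits that leave out a library, those without *muMt*-/- libraries 1, 2 or 4 or WT libraries 1, 2 or 6 (adjusted p up to 0.0969), and with total molecules as a covariate (−0.43, adjusted p = 0.6, the lowest over all alternatives being 0.00268). With that covariate *Cd274* had an adjusted p of 0.0855, the lowest over all alternatives being 6.83e-05. In the 2 comparisons of CD8+ T cells with WT, 14 of 14 macrophage markers were positive. Of these, 12 (*muMt*-/-) and 10 (GABA-implanted) had an unadjusted p under 0.05 in edgeR. The part of macrophage RNA in the counts of interferon-γ targets there was not tested.

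The other pathway lists gave 0 calls within a cell type in edgeR, and their counts at an unadjusted p under 0.05 stand beside 14.9%, 8.46% and 7.02% of all genes in TAMs and 6.17%, 3.71% and 6.89% in CD8+ T cells. For 25 type I interferon-stimulated genes the unadjusted counts were 0, 1 and 1 in TAMs and 2, 0 and 1 of 21 in CD8+ T cells. For 7 type I signalling genes they were 1, 2 and 0 in TAMs and 0, 0 and 0 in CD8+ T cells. For 8 inflammasome genes, which act downstream of GBPs, they were 2, 1 and 1 in TAMs and 2, 1 and 1 of 7 in CD8+ T cells. For 10 genes of ATG8 conjugation, which is needed to bring IRGs and GBPs to vacuoles, they were 0, 0 and 0 in TAMs and 1, 0 and 2 in CD8+ T cells.

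Between the cell types of WT mice, calls in these lists stand beside 16.8% of all genes called higher in TAMs and 5.99% lower. Called higher were 19 of 26 interferon-γ targets (0 lower), 14 of 25 type I interferon-stimulated genes (0 lower) and 5 of 11 interferon-γ signalling genes (3 lower). So were 4 of 7 type I signalling genes, 6 of 8 inflammasome genes and 3 of 10 ATG8 conjugation genes. Of the markers, 16 of 16 macrophage genes were higher and 10 of 10 T cell genes lower.

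Over the 18 TAM libraries the 10 genes moved together. All 45 pairs had a positive Pearson correlation of log2 values, with a median r of 0.588 (0.11 to 0.912). Pairs of all 5310 genes with a mean of at least 5 normalized molecules, not matched in depth to the 10, had a median of −0.00147. Of those pairs 2.09% exceeded 0.588. Taken within groups, as deviations from group means, the median r of the 10 genes was 0.672. *Gbp2* and *Iigp1* were closest (r = 0.912, Spearman's rho 0.876) and *Gbp7* and *Irgm1* farthest apart (r = 0.11, rho 0.191). In the 18 CD8+ T cell libraries the median r was 0.231 (−0.371 to 0.743), 37 of 45 pairs were positive, and 22.8% of all gene pairs exceeded that median. *Gbp5* and *Gbp9*, with means under 5 there, were kept among the 45 pairs and gave the lowest value, whereas all genes compared met that cut. These values describe libraries that share 3 groups, depth and size factors, and no p is given for them.

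Genes with a pattern most like the mean of the 10 (r over 18 libraries) were sought outside the 10 and their listed relatives. In TAMs they were *Upp1* (0.875), *Uba1* (0.865), *Ly6a* (0.837), *Hk3* (0.834) and *Oasl1* (0.83). In CD8+ T cells they were *Ier3* (0.841), *Caprin1* (0.713), *Zfp106* (0.712), *2810474O19Rik* (0.705) and *Inhba* (0.701). The search for single genes left the relatives and the other members in. For single genes in TAMs the closest were *Samhd1* for *Gbp3* (0.889), *Gbp8* for *Gbp4* (0.888, a pair that overlaps over 23774 bases of the same strand, so that shared molecules cannot be told apart), *Isg15* for *Gbp5* (0.772), *Gpr171* for *Gbp6* (0.947), *Ttc39b* for *Gbp7* (0.86), *Zyx* for *Gbp9* (0.834), *1810022K09Rik* for *Irgm1* (0.89) and *Dtx3l* for *Igtp* (0.812).

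The promoters of the 10 genes were searched on both strands for the core of the interferon-stimulated response element. It was searched for as 2 copies of GAAA with any 2 bases between them. The 10 were taken as interferon-inducible genes, so this repeat could be foreseen in their promoters. Its part in their shared pattern in TAMs was not tested. RefSeq promoters of the GRCm38.p6 build, 250 bases before to 50 after each start, were given for 6 of the 10 genes, the others being *Gbp4*, *Gbp6*, *Gbp9* and *Iigp1*. The GAAA repeat was found in 6 of 6, in 4 of 5 relatives with a promoter entry and in 3.44% of all 32851 promoters. A match is a run of letters and not a site shown to be bound. Windows of 30 bases around the repeat are printed for 4 of them, 5′ to 3′ on the strand of each gene to show the run that these promoters share, with the repeat in capitals. In *Gbp3*, *Gbp5* and *Gbp7* it reads on the opposite strand, as copies of TTTC, and *Gbp3* and *Irgm1* hold overlapping copies. The windows of *Gbp5* and *Irgm1* lie inside the annotated gene but in none of its exons, and the others before its start.
Gbp3 at chr3:142559992-142560021, plus strand: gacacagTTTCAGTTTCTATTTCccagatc
Gbp5 at chr3:142496759-142496788, plus strand: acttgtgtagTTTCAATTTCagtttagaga
Gbp7 at chr3:142530273-142530302, plus strand: gtgtgtgcagTTTCAGTTTCagttctccat
Irgm1 at chr11:48871428-48871457, minus strand: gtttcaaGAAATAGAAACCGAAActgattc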

How the data were processed

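RNA molecules were counted in 36 libraries of 100 sorted cells. The authors made barcoded polyA libraries, aligned reads with STAR to mm10 per the labels, and deposited 1 table of molecule counts per gene, not normalized. Members and gene lists were chosen with earlier results of these data known. Named genes are the members, their relatives, called or abundant genes of each pathway list, leading or absent markers, and the genes of most similar pattern. Genes averaging over 1 normalized molecule were tested with edgeR 4.0.16 (R 4.3.3; TMM, quasi-likelihood, Benjamini-Hochberg over all genes) within each cell type, and over all 36 libraries across types. SEs came from the fitted information matrix and the quasi-likelihood variance. DESeq2 1.42.0 gave size factors and Wald tests. Python 3.11.15 (numpy 2.4.6, pandas 2.3.3, scipy 1.17.1, matplotlib 3.10.9) gave summaries, exact permutation tests and plots. A count of 0 allows up to 3 molecules, a limit that covers counting error only. Patterns used log2(normalized number + 1) of genes with a mean of at least 5, but the correlations kept all 10 members whatever their mean. Coordinates came from GENCODE, promoters from RefSeq. The tests were checked on simulated counts. There the fit over 36 libraries made more wrong calls than its threshold implies, and the limit set for that check was relaxed for this fit afterwards. With edgeR's own filter it did not. Then 8 of 9 members tested were called higher in TAMs, in place of 9 of 10, beside 675 of 2614 genes. Alternatives covered scaling, filter, tool, covariates, the replicate block and leaving out each library. Another motif that was searched, and some genes, are not reported here.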

Additional observations from a re-analysis of the deposited data

Results flagged for a closer look

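In 5 of 63 groups of 6 libraries the highest or lowest library stood apart from the rest by a larger part of the group's range than Dixon's 95% limit, which chance passes in about 1 in 20 groups. *Gbp5* was at 44.6 normalized molecules in WT TAM library 5, with the others between 23.3 and 30.7. *Gbp6* was at 0 in WT CD8+ T cell library 2 (22896 molecules, where 0 allows up to 7.21 normalized molecules), with the others between 7.22 and 10.3. *Gbp9* was at 6.20 in GABA-implanted CD8+ T cell library 3, with the others between 1.83 and 3.15. The macrophage markers made up 0.195% of molecules in WT CD8+ T cell library 5 (others 0.0205% to 0.0793%) and 0.617% in *muMt*-/- library 1 (others 0.105% to 0.266%). Without these last 2 libraries, a choice made after seeing the data, edgeR called 4 genes in *muMt*-/- against WT CD8+ T cells. It called 0 in GABA-implanted against *muMt*-/- and 21 in GABA-implanted against WT, and 0 of the 10 genes in each comparison. T cell markers made up 0.189% of molecules in that *muMt*-/- library 1 (others 0.324% to 0.589%). They made up 0.356% in that WT library 5, where the WT range was 0.354% to 0.656%.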

How the results depend on the processing

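The 10 genes gave 738 log2 fold changes over the alternatives with adjusted p other than leaving out each library in turn. Of these, 685 kept their direction and side of the threshold, 11 lost a call and 42 changed sign. Over 1320 log2 fold changes from the fits that leave out a library, the numbers were 1227, 8 and 85. Within a cell type 0 of the 10 were called in any setting with adjusted p, so the changes of sign there are of values that were not called, some of them large, and the cause was not tested. Depth limits the CD8+ T cell values, which for *Gbp5* rest on 1 to 10 molecules per library. Comparisons are named by cell type, with GABA for GABA-implanted *muMt*-/- mice. DESeq2's Wald test called 4 genes for the B cell loss interaction, 1 in CD8 GABA against WT, 4 in TAM GABA against WT and 8 in TAM GABA against *muMt*-/-. It gave −0.054 for *Gbp3* in CD8 GABA against *muMt*-/-, −0.15 for *Gbp9* between cell types, and −0.0058 and −0.0016 for *Igtp* in CD8 and TAM GABA against WT. At an unadjusted Wald p under 0.05, the study's criterion, 226, 133 and 225 genes were called in CD8 *muMt*-/- against WT, GABA against *muMt*-/- and GABA against WT, and 1042, 542 and 407 in TAMs. These held 1 of the 10 in TAM *muMt*-/- against WT (*Gbp7*) and 1 in CD8 GABA against *muMt*-/- (*Iigp1*). DESeq2's size factors in edgeR gave 0 genes for the B cell loss interaction and 1 in CD8 GABA against WT, with −0.018 for *Gbp2* and −0.011 for *Igtp* in CD8 GABA against WT, −0.057 for *Gbp3* in CD8 GABA against *muMt*-/-, −0.14 for *Gbp9* between cell types and −0.0016 for *Igtp* in TAM GABA against WT. With edgeR's own filter, which tests fewer genes, the counts were 0 for the B cell loss interaction, 2 in TAM GABA against WT, 295 in TAM *muMt*-/- against WT and 1166 between cell types. The values were −0.044 for *Gbp2* and −0.048 for *Igtp* in CD8 GABA against WT, −0.019 for *Gbp4* and −0.019 for *Irgm1* in CD8 GABA against *muMt*-/- and −0.00071 for *Igtp* in TAM GABA against WT. With no filter they were 79 and 17 for the B cell loss and GABA interactions, 72, 11 and 64 in CD8 *muMt*-/- against WT, GABA against *muMt*-/- and GABA against WT, and 343, 51 and 63 in TAMs, with −0.016 for *Gbp2* and −0.024 for *Igtp* in TAM GABA against WT and −0.013 for *Gbp6* in TAM *muMt*-/- against WT. Same-numbered libraries were not treated as pairs, the correlations of their deviations, from −0.394 to 0.45, having mixed signs. With the replicate block the counts were 2 for the B cell loss interaction, 1 in CD8 GABA against WT, 2 in CD8 GABA against *muMt*-/- and 4 in TAM GABA against *muMt*-/-, with −0.031 for *Gbp2* and −0.050 for *Igtp* in TAM GABA against WT, and it changed no call of the 10. Fitting only the 12 libraries of a comparison gave 1 gene in CD8 GABA against WT, 1 in CD8 *muMt*-/- against WT, 4 in TAM GABA against WT and 323 in TAM *muMt*-/- against WT, with −0.011 for *Gbp2* and −0.022 for *Igtp* in TAM GABA against WT. With log2 total molecules as a covariate 6 genes were called in CD8 and 5 in TAM GABA against *muMt*-/-, 11 in TAM *muMt*-/- against WT and 412 between cell types (0 of the 10). *Gbp2* was then at 0.28 for the B cell loss interaction, −0.79 in CD8 GABA against WT, −0.062 in CD8 *muMt*-/- against WT, −0.060 in TAM GABA against *muMt*-/- and 0.25 in TAM *muMt*-/- against WT. *Gbp3* was at 0.19 and *Iigp1* at 0.19 in TAM *muMt*-/- against WT, *Gbp4* at 0.023 and *Gbp6* at 0.12 in TAM GABA against WT, *Gbp5* at 0.10 for the B cell loss interaction, *Gbp9* at −0.32 and *Igtp* at −0.87 between cell types, and *Igtp* at −0.39 in CD8 GABA against WT. With the macrophage marker percentage as a covariate 4 genes were called in CD8 GABA against WT and 6 against *muMt*-/-. *Gbp2*, *Gbp3* and *Gbp5* were at −0.81, −0.091 and −0.14 in CD8 GABA against WT, and *Gbp2* and *Gbp3* at −0.47 and −0.14 in CD8 *muMt*-/- against WT. Alternatives chosen after seeing the data were leaving out both CD8 libraries with outlying macrophage markers (21 genes in GABA against WT, 4 in *muMt*-/- against WT, *Iigp1* at 0.10 in GABA against WT) and library sizes over all genes, used in a first run and then replaced (*Gbp3* at −0.034 in CD8 GABA against *muMt*-/-, *Igtp* at −0.0019 in TAM GABA against WT). Leaving out each library in turn gave 67 to 231, 2 to 36 and 2 to 9 genes in TAM *muMt*-/- against WT, GABA against *muMt*-/- and GABA against WT, 0 to 13, 0 to 1 and 0 to 1 in CD8, 0 to 9 for the B cell loss and 0 to 2 for the GABA interaction. In TAM *muMt*-/- against WT, *Gbp3* ran from −0.14 to 0.083, *Gbp6* from −0.11 to 0.12 and *Igtp* from −0.029 to 0.25. In TAM GABA against *muMt*-/-, *Gbp6* ran from −0.18 to 0.089, *Gbp9* from −0.29 to 0.030, *Igtp* from −0.35 to 0.028, *Iigp1* from −0.16 to 0.13 and *Irgm1* from −0.00060 to 0.37. In TAM GABA against WT, *Gbp2* ran from −0.11 to 0.13, *Gbp4* from −0.22 to 0.068, *Gbp5* from −0.041 to 0.25, *Gbp6* from −0.15 to 0.096 and *Igtp* from −0.21 to 0.086. In CD8 *muMt*-/- against WT, *Igtp* ran from −0.35 to 0.045. In CD8 GABA against *muMt*-/-, *Gbp3* ran from −0.17 to 0.15, *Gbp4* from −0.048 to 0.20, *Gbp9* from −0.11 to 0.40 and *Irgm1* from −0.17 to 0.20. In CD8 GABA against WT, *Gbp2* ran from −0.33 to 0.55, *Gbp3* from −0.017 to 0.65, *Igtp* from −0.11 to 0.28 and *Iigp1* from −0.54 to 0.10. Between cell types *Gbp9* ran from −0.12 to 0.11, and for the GABA interaction *Gbp6* ran from −0.021 to 0.30, *Gbp7* from −0.23 to 0.045 and *Irgm1* from −0.070 to 0.36. Depth ratios ran from 1.70 to 2.19 in CD8 GABA against WT, 1.40 to 1.81 in CD8 *muMt*-/- against WT, 0.773 to 0.865 in TAM GABA against WT and 0.600 to 0.725 in TAM *muMt*-/- against WT. Macrophage marker ratios in CD8 libraries ran from 2.52 to 4.91 in GABA against WT, 0.737 to 1.34 in GABA against *muMt*-/- and 2.29 to 5.45 in *muMt*-/- against WT.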
